A study of Mus musculus with 2 samples.

Results

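A set of 9 genes of the alveolar basement membrane was followed by cell class in organoids grown with and without IL-1β. They were listed by symbol, with earlier results of these data known, and all 9 were found among the 27998 genes of both count tables. The set holds 4 type IV collagen chains (Col4a1, Col4a2, Col4a3 and Col4a4), 3 laminin chains (Lama3, Lamb3 and Lama5) and a pair of linker genes, Nid1 for nidogen 1 and Hspg2 for perlecan.

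The organoids were made from AT2 cells, the surfactant-producing cells of the alveolus, isolated from tamoxifen-treated SPCCreERT2;R26RtdTomato mice on a C57BL/6 background, in which the surfactant protein C promoter drives the Cre that labels them. The methods give an age of 6 to 10 weeks for most of the mice in the study. They were mixed with cultured lung stromal cells in growth factor-reduced Matrigel, itself an extract of basement membrane, and grown for 2 weeks. The control received PBS and the other culture IL-1β, an inflammatory cytokine. The methods give IL-1β at 20 ng/mL and a figure legend gives 10 ng/mL and day 21. Each condition was 1 library of 3′ UMI counts, in which a UMI stands for 1 captured RNA molecule, so no p-value can be given, and the 95% intervals below cover counting error only. How many mice or culture wells entered each library is not given in the sources used here.

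A basement membrane is a thin sheet of matrix on which epithelial cells sit. Type IV collagen chains join in threes. The trimers, which include those of α1 with α2 and of α3, α4 and α5 together, link into a network. Laminins, each of an α, a β and a γ chain, form a second network that cells bind through integrins and dystroglycan, and nidogens and perlecan tie both networks together. In the alveolus the α3 and α4 collagen chains are known from AT1 cells, the flat cells of gas exchange, and nidogen from the mesenchyme.

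The control library held 2101 barcodes and 33965848 UMIs, and the IL-1β library 3066 barcodes and 41220175 UMIs, with medians of 14613 and 11496.5 UMIs per barcode. The libraries shared 11 barcode sequences. Cells were clustered with the 9 genes and 57 other basement membrane, receptor and collagen-processing genes left out, so no member helped to define a class. AT2-like cells numbered 945 in the control and 1991 with IL-1β, AT1-like cells 297 and 389, and stromal cells 779 and 453. A further 115 IL-1β cells were DATP-like, after the study's damage-associated transient progenitors that express Krt8 and Cldn4. The control had none in this clustering, whereas the paper reports a smaller cluster of these progenitors in its control organoids. DATP-like cells had Krt8 at 1709 and Cldn4 at 533 UMIs in every 1000000, against 756 and 286 in E5, the main AT1-like cluster with IL-1β. The DATP-like class was the least stable: it held between 0 and 788 IL-1β cells and between 0 and 93 control cells over the clustering alternatives. In 6 of 9 other clusterings most of the 115 cells fell into a larger cluster named AT2-like, and another random seed alone put 113 of them into such a cluster of 299 cells. The DATP-like values below therefore describe these 115 cells and hold for this clustering. Most AT1-like cells came from cluster E6 in the control and from E5 with IL-1β. AT1-like cells still carried AT2 transcripts, with Sftpc at 37152 UMIs in every 1000000 in E6 and 19553 in E5.

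Levels are given as CPM, the UMIs of a gene scaled to 1000000 UMIs of a class and library. A gene was called in a comparison when its levels differed at least 2-fold and both sides held at least 20 UMIs together. The share of all genes called the same way is given beside the members' counts.

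Col4a1 and Col4a2 encode the α1 and α2 chains of the collagen network found in basement membranes throughout the body. In the GRCm38 annotation of GENCODE vM21, Col4a1 (ENSMUSG00000031502) spans chr8:11198423-11312826 on the minus strand and Col4a2 (ENSMUSG00000031503) chr8:11312805-11449287 on the plus strand. Their annotated first bases are 21 bases apart and the genes overlap there. Col4a3 (ENSMUSG00000079465) at chr1:82586921-82722059 on the plus strand and Col4a4 (ENSMUSG00000067158) at chr1:82448423-82586849 on the minus strand form the second such pair, head to head with 72 bases between their first bases. Promoter windows are shown for Col4a1, Col4a2 and Col4a4 of these pairs because each pair had closely matching levels over clusters, as described further on. The windows are from RefSeq (GRCm38.p6), run from 250 bases before to 50 after a gene's start and are written 5′ to 3′ on the gene's strand. Capitals mark the GC box, spelled GGGCGG, and the CCAAT box, which is named for its letters, in a match on either strand. Windows were examined for 7 of the 9 genes.
Col4a1 (chr8:11312777-11313076, minus strand): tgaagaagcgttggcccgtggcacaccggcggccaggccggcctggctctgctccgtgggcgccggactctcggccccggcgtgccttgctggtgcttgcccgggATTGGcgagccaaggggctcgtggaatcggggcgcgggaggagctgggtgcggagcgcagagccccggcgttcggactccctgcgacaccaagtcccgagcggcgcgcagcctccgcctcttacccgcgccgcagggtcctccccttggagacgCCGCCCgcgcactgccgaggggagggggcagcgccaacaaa
Col4a2 (chr8:11312555-11312854, plus strand): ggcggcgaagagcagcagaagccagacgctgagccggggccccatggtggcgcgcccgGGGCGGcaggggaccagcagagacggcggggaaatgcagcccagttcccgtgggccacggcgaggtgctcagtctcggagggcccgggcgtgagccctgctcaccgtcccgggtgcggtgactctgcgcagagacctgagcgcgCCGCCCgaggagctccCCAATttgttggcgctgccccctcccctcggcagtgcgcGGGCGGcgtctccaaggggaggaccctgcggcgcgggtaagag
Col4a4 (chr1:82586800-82587099, minus strand): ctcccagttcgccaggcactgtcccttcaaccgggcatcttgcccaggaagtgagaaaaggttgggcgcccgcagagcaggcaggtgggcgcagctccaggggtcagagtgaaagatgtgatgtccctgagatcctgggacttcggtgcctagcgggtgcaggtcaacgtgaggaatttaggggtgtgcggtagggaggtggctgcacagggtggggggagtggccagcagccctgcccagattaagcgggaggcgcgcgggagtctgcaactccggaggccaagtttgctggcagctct

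The Col4a1 window held 1 GC box and 1 CCAAT box, and the Col4a2 window 3 GC boxes and 1 CCAAT box. The windows overlap, so that the GC box nearest the end of each is the same stretch. The Col4a4 window held no match to either motif. Over all 32851 mouse windows of this length, 35.7% held a GC box and 37.4% a CCAAT box on either strand. The AP-1 motif TGANTCA, present in 7.81% of windows, was in none of the 8 windows of the 7 genes. No window of Col4a3 or Lama3 was examined, so nothing is said of motifs in these genes. These matches describe letters and not binding. G and C made up 74.0% of the Col4a1 window, 73.7% of the Col4a2 window and 63.3% of the Col4a4 window, against a median of 52.7% over all windows.

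Every class expressed Col4a1 and Col4a2. Col4a1 was at 558 CPM in control stromal cells, 455 in AT1-like and 251 in AT2-like cells. With IL-1β it was at 419 in stromal, 322 in AT1-like, 149 in DATP-like and 125 in AT2-like cells. The classes that both libraries hold had the same order, and the counting interval of the ratio of each neighbouring pair excluded 1. Col4a2 was at 375 in AT1-like, 333 in stromal and 183 in AT2-like cells of the control. With IL-1β it was at 348 in stromal, 288 in AT1-like, 126 in DATP-like and 109.8 in AT2-like cells, so AT1-like and stromal cells changed places, and the intervals of DATP-like (108 to 148) and AT2-like cells (106 to 114) overlapped.

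**Figure D1:**
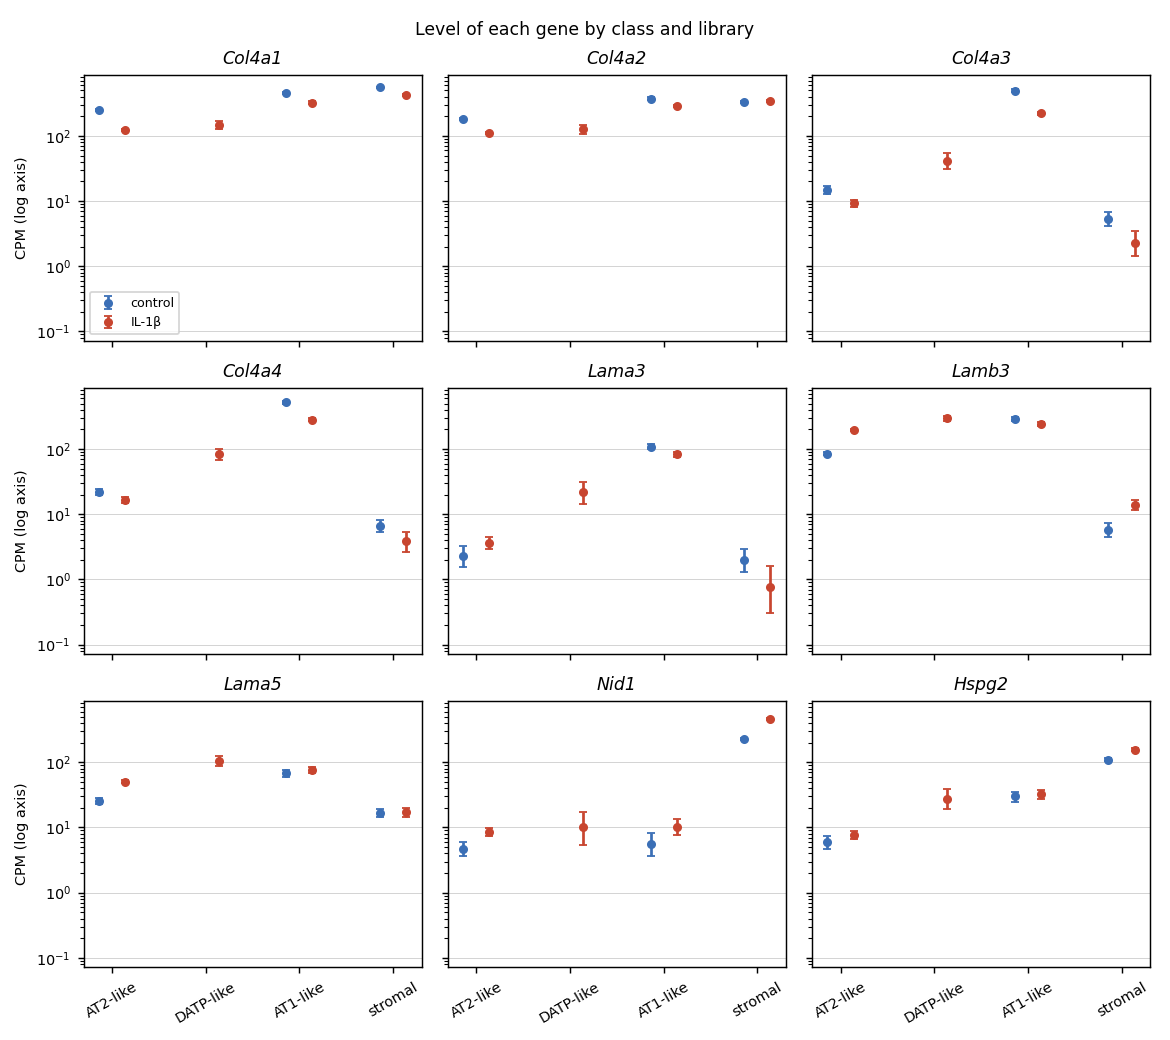
Each panel is a gene, the vertical log axis gives CPM, and points stand for a class in the control (blue) or IL-1β library (red) with exact Poisson 95% intervals. Col4a3, Col4a4 and Lama3 peak in AT1-like cells, at 495, 520 and 109.6 in the control, and Nid1 and Hspg2 in stromal cells. The control has no DATP-like point.

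Col4a3 and Col4a4, the α3 and α4 chains of the specialised network, were mostly AT1-like. Col4a3 was at 495 CPM in control AT1-like cells, 14.8 in AT2-like and 5.39 in stromal cells. Col4a4 was at 520, 22.2 and 6.61 in the same classes. Of all control UMIs of these genes, AT1-like cells held 84.9% for Col4a3 and 80.8% for Col4a4. DATP-like cells lay between both other epithelial classes after IL-1β, with Col4a3 at 41.6 (interval 31.2 to 54.4) against 9.20 and 223, and Col4a4 at 83.2 (68.1 to 101) against 16.4 and 284. After each cell was thinned to 4500 UMIs, 68.4% of control AT1-like cells had a UMI of both Col4a3 and Col4a4. That share was 37.0% in AT1-like cells with IL-1β, 7.0% in DATP-like cells and under 1% in AT2-like and stromal cells of either library. Without thinning the shares in AT1-like cells were 88.9% and 67.6%, at median depths of 12374 and 11578 UMIs.

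Col4a5, the partner that completes the α3, α4 and α5 trimer, was at 105 CPM in control AT1-like cells and 128 in control stromal cells. With IL-1β it was at 76.4 in AT1-like and 24.3 in stromal cells. Its stromal ratio of 0.190 (interval 0.164 to 0.219) was called lower. In control stroma Col4a5 and Col4a6 were highest in cluster S2, at 251 and 63.5.

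Lama3 and Lamb3 encode the α and β chains of laminin-332, the laminin of epithelial anchorage. Lama3 was at 109.6 CPM in control AT1-like cells, 2.29 in AT2-like and 1.97 in stromal cells. With IL-1β it was at 83.4 in AT1-like, 22.0 in DATP-like, 3.60 in AT2-like and 0.769 in stromal cells. Lama3 was thus mostly AT1-like, as Col4a3 was, with 85.0% of its control UMIs in AT1-like cells. Lamb3 (ENSMUSG00000026639, chr1:193207699-193343878, plus strand) was broader, at 291 in AT1-like, 85.1 in AT2-like and 5.77 in stromal cells of the control. With IL-1β Lamb3 was at 296 in DATP-like, 243 in AT1-like, 196 in AT2-like and 14.0 in stromal cells. Its levels in DATP-like (267 to 327) and AT1-like cells (230 to 257) did not overlap in their intervals. In this clustering Lama5 was the only other member with a higher level in DATP-like than in AT1-like cells. It was at 105 (88.2 to 125) against 75.4 (68.1 to 83.3).

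Lama5 (ENSMUSG00000015647, chr2:180176373-180225859, minus strand) encodes the α5 chain of the laminins common in mature epithelial basement membranes. It was at 68.0 CPM in control AT1-like cells, 25.2 in AT2-like and 16.6 in stromal cells. With IL-1β it was at 75.4, 50.5 and 17.0.

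Nid1 (ENSMUSG00000005397, chr13:13437551-13512269, plus strand) and Hspg2 (ENSMUSG00000028763, chr4:137468769-137570630, plus strand) were mostly stromal. Nid1 was at 225 CPM in control stromal cells, 5.61 in AT1-like and 4.73 in AT2-like cells. With IL-1β Nid1 was at 466 in stromal, 10.3 in AT1-like, 10.2 in DATP-like and 8.4 in AT2-like cells. Stromal cells held 94.9% of its UMIs in the control and 90.9% with IL-1β. Hspg2 was at 109 in stromal, 29.9 in AT1-like and 5.88 in AT2-like cells of the control. With IL-1β it was at 157 in stromal, 32.3 in AT1-like, 27.5 in DATP-like and 7.63 in AT2-like cells, and the AT1-like (27.5 to 37.6) and DATP-like intervals (19.1 to 38.2) overlapped.

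Part of each low level can be RNA that floats between droplets, or doublets, and genes that mark the other compartment gave its size. Col1a1, Col1a2, Col3a1 and Dcn, which fibroblasts make, had levels in control epithelial cells that were 1.93% to 2.55% of those in stromal cells, and 1.60% to 2.35% with IL-1β. Nid1 in epithelial cells was at 2.25% (1.82% to 2.75%) and 1.94% (1.71% to 2.18%) of its stromal level, the same size as these genes, and its epithelial UMIs are read here as background. Epithelial Col4a1 was at 53.1% and 37.8% of the stromal level and epithelial Hspg2 at 10.3% and 7.97%, above that background. In AT2-like cells Hspg2 was at 5.37% (4.25% to 6.72%) of the stromal level in the control and 4.86% (4.14% to 5.68%) with IL-1β.

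In the other direction, Sftpc, Sftpa1, Sftpb and Slc34a2, which AT2 cells make, had stromal levels of 2.50% to 3.68% of the epithelial level in the control and 4.54% to 5.86% with IL-1β. Stromal Col4a3 was at 4.41% (3.43% to 5.58%) and 4.97% (3.07% to 7.63%) of the epithelial level, and Col4a4 at 4.92% and 6.05%. Stromal Lamb3 was at 4.48% (3.52% to 5.63%) and 6.67% (5.55% to 7.95%), and Lama3 at 7.53% (4.87% to 11.2%) and 4.32% (1.73% to 8.95%). These intervals reached the range of the surfactant genes or lay just above it. No stromal expression of the 4 genes is read from such levels. Stromal Lama5 was at 47.7% and 29.2%, well above that range. Lama3 in control AT2-like cells, with 32 UMIs, was at 116% (67.1% to 203%) of its stromal level and is likewise not read as expression. With IL-1β AT2-like Lama3, with 85 UMIs, was at 469% (218% to 1201%) of the stromal level. Of these UMIs, 52 came from a single cluster, E4, described further on.

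**Figure D2:**
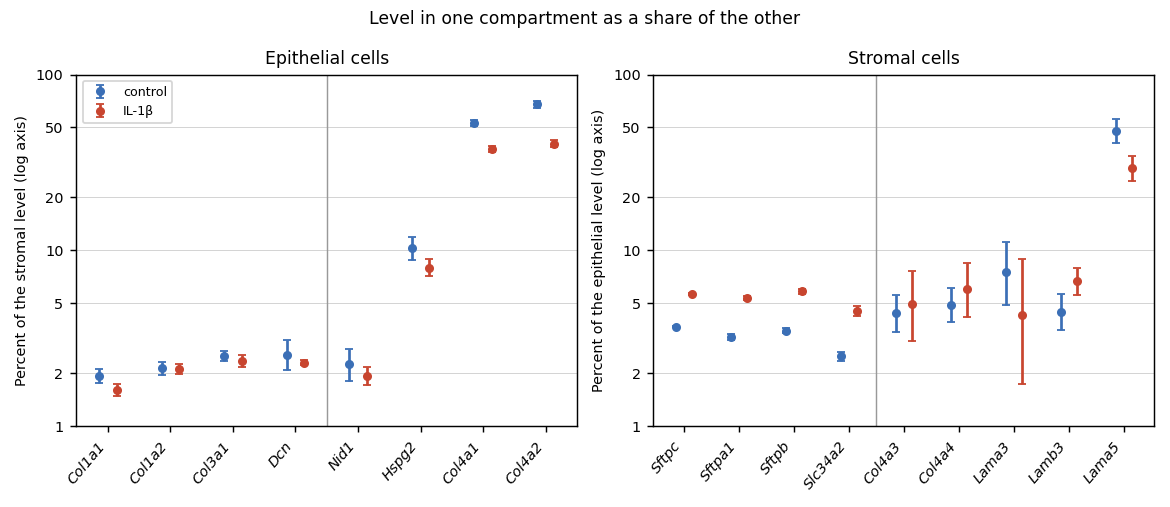
On log axes, the left panel gives the level in all epithelial cells as a percent of the stromal level and the right panel the level in stromal cells as a percent of the epithelial level, with 95% intervals, for the control (blue) and IL-1β (red). Genes left of the grey line mark the other compartment. Nid1 sits among them at 2.25% and 1.94%, and Lama5 stands above them at 47.7% and 29.2%.

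Against AT2-like cells of the control, 7 of 9 members were called higher in AT1-like cells, where 17.8% of 11679 genes were called higher, and none was called lower, where 6.74% were. The members' median log2 ratio was 1.77, against 0.39 over all genes. The ratio was 47.8 for Lama3 (33.4 to 70.7), 33.6 for Col4a3 (29.1 to 38.9) and 23.4 for Col4a4 (20.8 to 26.4). It was 5.09 for Hspg2, 3.42 for Lamb3, 2.70 for Lama5 and 2.05 for Col4a2. The Lama3 ratio was taken against an AT2-like level no higher than background. Col4a1 at 1.81 and Nid1 at 1.19 were not called. With IL-1β, 6 of 9 were called higher in AT1-like than in AT2-like cells, where 12.1% of genes were, and none lower, where 7.48% were. Lama3 stood at 23.1, Col4a3 at 24.2 and Col4a4 at 17.3, while Lamb3, at 1.24, and Lama5, at 1.49, were not among the 6. Of the 17 tested other basement membrane components, 8 were called higher and 1 lower in control AT1-like cells, with a median log2 ratio of 0.67. Of 14 tested receptors 9 were called higher and none lower, with a median of 1.58.

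DATP-like cells were set against both neighbours in the IL-1β library. Against AT2-like cells, 5 of 9 members were called higher, where 12.2% of genes were: Lama3 at 6.10 (3.83 to 9.45), Col4a4 at 5.07, Col4a3 at 4.52, Hspg2 at 3.60 and Lama5 at 2.08. None was called lower, where 5.7% were. Against AT1-like cells, 5 were called lower, where 7.4% of genes were. None was called higher, where 5.33% were. These were the 4 collagen chains, with ratios from 0.187 for Col4a3 to 0.463 for Col4a1, and Lama3 at 0.264. Lamb3 at 1.22 and Lama5 at 1.39 were not called. Over 15 alternatives their ratios ran from 0.449 to 2.15 and from 0.804 to 4.35, so neither order held throughout. Where other settings left 1 or 2 DATP-like cells, the ratio of Col4a1 to AT1-like cells was above 1, at 1.18 with all deposited barcodes and 1.05 with all highly variable genes. Summed mesothelial markers were at 113 CPM in DATP-like, 51.7 in AT1-like and 4.37 in AT2-like cells after IL-1β. In DATP-like cells 1 of the 5 markers, Msln, had UMIs, while Upk3b, Wt1, Lrrn4 and Upk1b were at 0. Among the partners in DATP-like cells, Itgb1 was at 306 CPM, Itga6 at 93.4 and Itgb4 at 18.8. Itga6 and Itgb4 form an integrin that binds laminin-332, and both were higher there than in AT1-like cells after IL-1β, at 35.8 and 8.94. Of 14 tested receptors, 3 were called higher than in AT1-like cells and 1 lower, with a median log2 ratio of -0.13.

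The IL-1β library was compared with the control library within each class. The AT2-like and AT1-like clusters were nearly separate by library. E0 held 928 of 945 control AT2-like cells, and the IL-1β ones were in E1, E2, E3 and E4. E6 held 294 of 297 control AT1-like cells and E5 386 of 389 with IL-1β. These ratios thus set different clusters under a shared name against each other. With 1 library per condition, IL-1β cannot be told apart from library or culture. The AT2-like class was not split into the AT2 and primed AT2 states that the study names. In AT2-like cells 2 of 9 members were called higher, where 9.72% of 12630 genes were, and 1 lower, where 4.87% were. The members' median log2 ratio was 0.38 and that of all genes 0.12. Lamb3, at 85.1 in the control and 196 with IL-1β, had a ratio of 2.30 (2.16 to 2.46), and Lama5, at 25.2 and 50.5, a ratio of 2.00 (1.78 to 2.26). Col4a1, at 251 and 125, had a ratio of 0.497 (0.473 to 0.522). Both Lama5 and Col4a1 thus lay at the edge of the call. Col4a2 at 0.60, Col4a3 at 0.623 and Col4a4 at 0.739 had ratios below 1 and were not called. Lama3 at 1.57 (1.04 to 2.44) and Hspg2 at 1.30 (0.995 to 1.71) were not called. Nor was Nid1 at 1.78, whose AT2-like levels are those of the background. The control AT2-like level of Lama3 was also no higher than background.

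The 4 AT2-like clusters of the IL-1β library differed in these levels. Lamb3 was at 266 CPM in E1, 186 in E4, 176 in E2 and 160 in E3, all above the 84.5 of the main control AT2-like cluster. Col4a1 ran from 87.9 in E1 to 179 in E4, all below the control cluster's 253. Lama5 ran from 45 to 56.1, against 25.4. E4, which is led by Cxcl5, Slc26a4 and Cd14, had the highest Ager of the 4 at 1157. It also had the highest Col4a3 at 20.4, Col4a4 at 36.1 and Lama3 at 9.62. These values were above those of the main control AT2-like cluster, at 14.7, 21.9 and 2.34. The Col4a3 intervals overlapped (16.7 to 24.5 and 12.7 to 16.9). E1, E2 and E3 had values below that control cluster. They ran from 3.79 to 8.89 for Col4a3, 8.33 to 13.1 for Col4a4 and 1.51 to 2.27 for Lama3. The Lama3 values rest on 10 to 13 UMIs a cluster, and each interval overlapped that of the control cluster (1.60 to 3.30). Summed AT2 markers were at 129405 CPM in control AT2-like cells and 97155 with IL-1β, and their part in these ratios was not tested beyond the other scalings. Leaving out surfactant, mitochondrial and ribosomal protein genes shifted every log2 ratio in AT2-like cells by -0.14, which put Lamb3 at 2.09 and Lama5 at 1.82.

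Of the partners in AT2-like cells, Lamc1 was at 32.8 CPM in the control and 26.5 with IL-1β. Itga3, an integrin chain for laminin, was at 20.7 and 37.9, and Itga6 at 29.0 and 60.4, a ratio of 2.08 that was called. Dag1, which encodes dystroglycan, was at 152 and 111, and Itgb1 at 123 and 143. Itga2, a collagen-binding integrin chain, had 27 UMIs with IL-1β and 0 in the control, at least 5.33-fold higher with the control set at a floor of 3 UMIs. Plod2, a collagen lysyl hydroxylase, was at 1.72 and 14.1 (ratio 8.19, 5.41 to 13.0). Ranked by the interval limit nearest 1, the lowest called genes of the lists were Fras1 and Nid2. Fras1 had a ratio of 0.0493 (0.00565 to 0.199), with 24 UMIs in the control and 2 with IL-1β. Nid2 had 0.127, with 28 and 6. Over the lists, 1 of 16 other basement membrane components was called higher and 3 lower, and 5 of 18 receptors higher and 1 lower. Of 13 collagen-processing genes 2 were called higher and none lower. Over all genes 9.72% were called higher and 4.87% lower.

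In AT1-like cells no member was called higher, where 5.5% of 10974 genes were, and 1 was called lower, where 4.8% were. That was Col4a3, at 495 CPM in the control and 223 with IL-1β, with a ratio of 0.450 (0.418 to 0.483). Col4a4, at 520 and 284, had a ratio of 0.547 (0.511 to 0.584). Col4a1 at 0.707, Lama3 at 0.761, Col4a2 at 0.767 and Lamb3 at 0.836 had ratios below 1. Hspg2 at 1.08, Lama5 at 1.11 and Nid1 at 1.84 had ratios above 1. AT1-like Nid1, with 24 and 53 UMIs, was at 2.49% and 2.21% of the stromal level, the size of the background. The members' median log2 ratio was -0.38 and that of all genes -0.0072. Summed AT1 markers moved the same way, from 19928 to 13616 CPM, while summed DATP markers were at 2994 and 4084. Cluster E5 was led by AW112010, Serpinb9, Cldn4 and Tgfb2, of which AW112010 and Cldn4 are in the DATP marker list, and its Cldn4 was at 286 against 47.5 in E6. The part of these markers in the result was not tested. Over 18 alternatives the ratio ran from 0.321 to 0.538 for Col4a3 and from 0.399 to 1.01 for Col4a4, where 1.01 came from resolution 0.5, which left 2 IL-1β AT1-like cells.

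**Figure D3:**
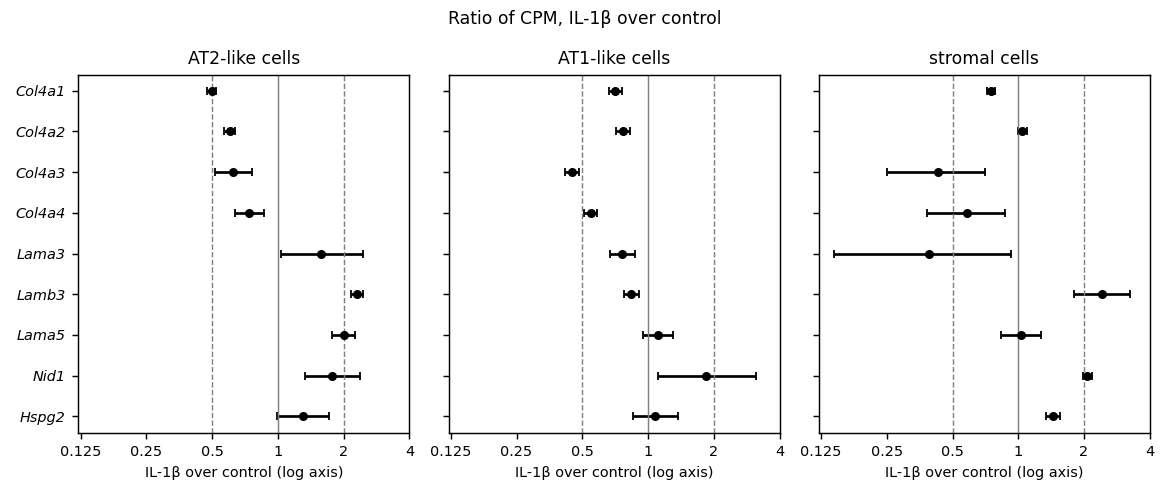
Each point is the ratio of CPM with IL-1β to the control, on a log axis, with its exact 95% interval for counting error. Dashed lines mark the 2-fold limits. Lamb3 and Lama5 reach 2.30 and 2.00 in AT2-like cells, Col4a3 is at 0.450 in AT1-like cells and Nid1 at 2.07 in stromal cells.

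Finer clustering showed how far these levels depend on which cells are called AT1-like. At a resolution of 2.0 the control AT1-like cells split. A cluster of 167 cells, led by Igfbp2 and Spock2, had Ager at 17473, Col4a3 at 758, Col4a4 at 766 and Lama3 at 171 CPM. A cluster of 128 cells, led by Ndnf and Akap5, had Ager at 5450, Col4a3 at 282, Col4a4 at 321 and Lama3 at 58.9. The 282 IL-1β cells named AT1-like at this resolution had Ager at 8250, Col4a3 at 267, Col4a4 at 340 and Lama3 at 100.2. Their levels of the collagen chains lay near those of the second control cluster, whose Sftpc was at 57237 against 13244 in the IL-1β cells. In that clustering 608 IL-1β cells in 3 clusters were named DATP-like. The 169 cells of a cluster led by AW112010 and Plet1 had Col4a3 at 74.0 and Col4a4 at 103. Another, of 99 cells, had 38.4 and 66.8, and the 340 IL-1β cells of a cluster led by Slc26a4 and Cd14 had 17.3 and 31.9.

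Of the partners in AT1-like cells, Dag1 was at 785 CPM in the control and 455 with IL-1β, and Itga3 at 166 and 139. Itgb1 was at 293 in both libraries. Itgb4 was at 3.74 and 8.94 (ratio 2.39, 1.33 to 4.53). Itga7, a laminin-binding integrin chain, had the ratio 3.48 and Col7a1, the anchoring fibril collagen, 3.57 on 37 UMIs in all. Ranked by the interval limit nearest 1, the lowest called genes of the lists were Itgb5 at 0.263 and Npnt at 0.425. Npnt went from 207 to 88.1 CPM. Npnt encodes nephronectin, a basement membrane ligand of integrins. Over the lists, 1 of 15 other components was called higher and 4 lower, and 2 of 14 receptors higher and 1 lower. Of 13 collagen-processing genes 2 were called higher and 1 lower. Over all genes 5.5% were called higher and 4.8% lower.

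In stromal cells 2 of 9 members were called higher, where 5.17% of 12708 genes were, and 2 lower, where 13.6% were. Nid1, at 225 CPM in the control and 466 with IL-1β, had a ratio of 2.07 (1.97 to 2.17). Hspg2, at 109 and 157, had a ratio of 1.44 (1.33 to 1.55), Col4a1, at 558 and 419, 0.752 (0.723 to 0.782), and Col4a2, at 333 and 348, 1.04 (0.997 to 1.09). Lama5 was at 1.03. The other calls were Lamb3 at 2.42, Col4a3 at 0.428 and Lama3 at 0.390, on 7 to 127 UMIs a side and near the background levels given above. The median log2 ratio of all genes was -0.34 here and that of the members 0.041. Median-of-ratios scaling shifted every stromal log2 ratio by 0.34, which put Nid1 at 2.61, Hspg2 at 1.81 and Col4a1 at 0.949.

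The stromal clusters were nearly separate by library. In control clusters Nid1 ran from 200 to 271 CPM in S0, S2, S4, S5 and S7, and was at 87.4 in S9, 28 cells led by contractile genes with 286015 UMIs in all. In the IL-1β clusters it was at 696 in S6, led by Mmp10 and Il11, 603 in S1, 382 in S3 and 208 in S4. S4, led by Ctgf, was the only stromal cluster with over 20 cells of each library, 86 and 21, and its Nid1 was at 213 in the control and 208 with IL-1β. Hspg2 was at 341 in S1 and from 107 to 144 in the other IL-1β clusters, against 31.5 to 140 in control clusters. Without S1 and S9, the 2 stromal clusters of lowest depth, the stromal ratio was 1.91 for Nid1 and 1.05 for Hspg2. The Hspg2 ratio thus depended on these 2 clusters, of which S1 had the highest Hspg2. The part of depth in it was not tested. Col4a1 was lower in the contractile cluster S4, at 239 and 218, than in S0, S2, S5 and S7, at 559 to 722. Cells with at least 5 endothelial marker UMIs numbered 0 and 4 in the stromal classes, and those with immune marker UMIs 4 and 3. Without them the Nid1 ratio was 2.08. Summed endothelial markers were at 2.73 CPM in control stromal cells and 48.0 with IL-1β.

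**Figure D4:**
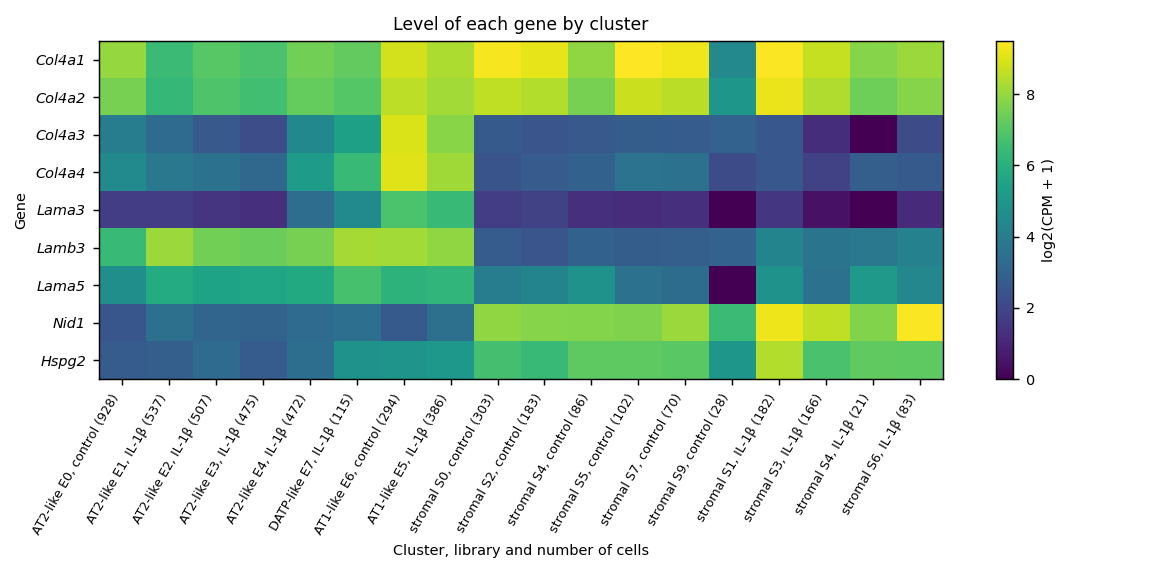
Colour gives log2(CPM + 1) of each gene (rows) by cluster and library (columns, with the number of cells). Shown are AT2-like, DATP-like, AT1-like and stromal clusters with at least 20 cells of a library. Col4a3, Col4a4 and Lama3 are bright in the columns AT1-like E6 and E5, and Nid1 in the stromal columns, at 696 CPM in S6.

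Other basement membrane components differed more widely in the stroma. Lama2, the α chain of mesenchymal laminin-211, was at 37.1 CPM in the control and 1.43 with IL-1β (ratio 0.0386, 0.0204 to 0.0666), and Col4a6 at 28.0 and 1.43 (0.0510). Nid2, the paralog of Nid1, was at 53.8 and 11, a ratio of 0.204 (0.164 to 0.252), opposite in direction to Nid1. P4ha2, a collagen prolyl hydroxylase, was at 25.6 and 123 (4.82) and Sdc1, a cell surface proteoglycan, at 67.9 and 282 (4.15). Serpinh1, the collagen chaperone, was at 822 and 922, Itgb1 at 272 and 257, Lamc1 at 63.6 and 68.1 and Dag1 at 104 and 81.9. Over the lists, 3 of 20 other components were called higher and 7 lower, and 2 of 17 receptors higher and 2 lower. Of 13 collagen-processing genes 4 were called higher and none lower, with a median log2 ratio of 0.46. Over all genes 5.17% were called higher and 13.6% lower.

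Stromal cells were also set against all epithelial cells of their library. In the control 2 of 9 members were called higher in stroma, where 23.2% of 13347 genes were, and 5 lower, where 16.7% were. With IL-1β 4 were called higher, where 15.9% of genes were, and 5 lower, where 24.3% were. Nid1 had ratios of 44.5 and 51.7 and Hspg2 9.75 and 12.5. Col4a1 had ratios of 1.88 and 2.65 and Col4a2 of 1.48 and 2.47, which added the pair with IL-1β. The others were lower in both libraries, with Lama5 at 0.477 and 0.292. Since epithelial cells numbered 1285 and 2580 and stromal cells 779 and 453, the share of a gene's UMIs from each class moved with cell numbers as well as with levels. AT2-like cells held 45.9% of Lamb3 UMIs in the control and 69.1% with IL-1β.

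Ratios between collagen chains and between laminin chains were compared across classes, since capture differs between genes but is shared by classes of a library. Col4a1 had 1.68 UMIs per Col4a2 UMI (1.61 to 1.74) in control stromal cells and 1.21 (1.15 to 1.27) with IL-1β. In AT2-like cells it was 1.37 and 1.14, and in AT1-like cells 1.21 and 1.12, with overlapping intervals in the last. Col4a3 had 1.09 UMIs per Col4a1 UMI in control AT1-like cells and 0.692 (0.641 to 0.747) with IL-1β, against 0.279 in DATP-like cells and 0.0588 and 0.0737 in AT2-like cells. Per Col4a4, Col4a3 had 0.953 UMIs in control AT1-like cells and 0.784 with IL-1β.

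Among the laminin chains, Lama3 had 0.377 UMIs per Lamb3 UMI in control AT1-like cells and 0.343 with IL-1β, with overlapping intervals. The same ratio was 0.0743 in DATP-like cells, and 0.0270 and 0.0184 in AT2-like cells. Lama5 had 11 and 14.0 UMIs per Lama3 UMI in AT2-like cells and 0.620 and 0.904 in AT1-like cells. The control AT2-like ratios with Lama3 rest on 32 Lama3 UMIs, a level no higher than background.

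**Figure D5:**
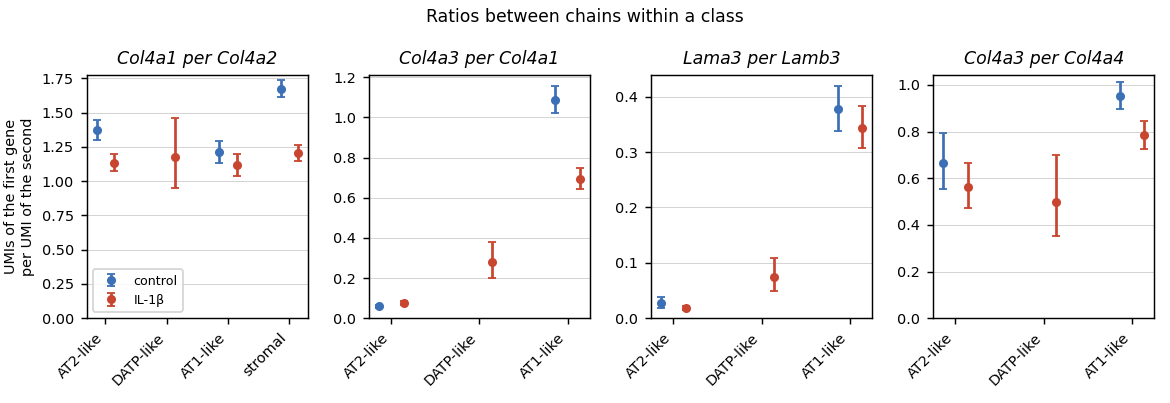
Points give the UMIs of 1 chain per UMI of another within a class, with 95% intervals for counting error, in the control (blue) and with IL-1β (red). Col4a1 per Col4a2 is at 1.68 and 1.21 in stromal cells, and Lama3 per Lamb3 is at 0.377 and 0.343 in AT1-like cells and 0.0743 in DATP-like cells.

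Across the 16 clusters of at least 50 cells, kept apart by library, the members fell into groups of similar pattern. Pearson's r of log2(CPM + 1) was 0.979 for Col4a1 with Col4a2, 0.985 for Col4a3 with Col4a4 and 0.978 for Col4a3 with Lama3. It was 0.917 for Nid1 with Hspg2 and 0.898 for Lamb3 with Lama5. Col4a1 with Col4a3 gave -0.028 and Lamb3 with Nid1 -0.90. The clusters share libraries and fall into epithelial and stromal ones, so these values describe and do not test. Of all genes with at least 200 UMIs, the most like Col4a1 after Col4a2 were Sqle (0.955) and Diaph2 (0.934). Col4a3 was followed, after Col4a4, by Dag1 (0.980) and Akap5 (0.978), and Col4a4, after Col4a3, by Ager (0.981) and Wdr45 (0.977). Lama3 came closest to Col4a3, Akap5 (0.969) and Slc44a2 (0.966). Lamb3 came closest to Kdf1 (0.990), Ezr (0.988) and Ctsh (0.988), and Lama5 to Rgs11 (0.957), Zbtb18 (0.951) and Lrrfip1 (0.951). Nid1 was nearest to Ugdh (0.991), Clmp (0.989) and Rcn3 (0.987), and Hspg2 to Trnt1 (0.978), Chpf2 (0.977) and P3h1 (0.976), a prolyl hydroxylase of collagen.

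Cells with a UMI of a member followed the levels. After thinning to 4500 UMIs, Lamb3 was found in 31.0% of AT2-like cells in the control and 56.8% with IL-1β, against 2.7% and 5.5% of stromal cells, at median depths of 14109, 11333, 15504 and 14849 UMIs. Without thinning the AT2-like shares were 60.5% and 82.9%. Lama5 was found in 11.2% and 21.7% of thinned AT2-like cells and Col4a1 in 65.2% and 38.9%. Nid1 was found in 58.5% and 77.3% of thinned stromal cells, and in 1.7% and 4.0% of AT2-like cells. The background gene Col1a1 was found in 9.9% of AT2-like cells in either library. Dcn, another background gene, was found in 2.9% of them in the control and 46.0% with IL-1β. Its stromal level was 225 CPM in the control and 5790 with IL-1β, so background detection was not the same in both libraries. Stromal Col1a1, at 1413 and 1420 CPM, is more abundant than stromal Nid1, so its share sets no limit for Nid1. Hspg2 was found in 38.6% and 56.3% of stromal cells and in 1.8% and 3.3% of AT2-like cells.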

How the data were processed

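The deposited files hold raw counts of UMIs per gene and cell, produced by the authors with Cell Ranger (GRCm38), 1 library per condition, without the study's cell filters applied. Barcodes with over 500 and under 7000 genes and over 2000 UMIs were kept (5139 of 5167 after doublet removal). The study's scrublet rule marked 0.0583% of cells which is under 0.5%, so it is taken to have failed and doublets are still present. Cells were clustered jointly with scanpy 1.11.5 and leidenalg 0.10.2 (resolution 1.0, 50 components, 15 neighbors), first to set aside stroma and then within each compartment. Clusters were named from marker lists by a rule set after the clusters were seen. Cycling, mitochondrial, airway-like, unnamed and mixed clusters were set aside from the classes. Those in the epithelial compartment still counted among all epithelial cells, wherever stromal and epithelial cells are compared. Counts were summed per class and library, with exact Poisson intervals and exact conditional intervals for ratios (scipy 1.17.1), tested on simulated data. Named genes were all members, fixed partners, and per IL-1β comparison the 2 highest and 2 lowest called genes of 3 lists by the ratio limit nearest 1, and 1 partner is not reported here. The members and lists were chosen with earlier results of these data known.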

Additional observations from a re-analysis of the deposited data

Results flagged for a closer look

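The ratio of Lama3 between IL-1β and control was above 1 in AT2-like cells, at 1.57, and below 1 in AT1-like cells, at 0.761, and in stromal cells, at 0.390. The ratio of Lamb3 was 2.30 in AT2-like and 2.42 in stromal cells and 0.836 in AT1-like cells. Both were picked out because their intervals lie on opposite sides of 1 in different classes. With 1 library per condition the difference between classes was not tested. Lama3 in control AT2-like cells had 32 UMIs and was at 116% (67.1% to 203%) of the stromal level. Stromal UMIs of both genes were few, 26 and 7 for Lama3 and 76 and 127 for Lamb3, at 4.32% to 7.53% of the epithelial level, near the 2.50% to 5.86% of surfactant genes in the stroma.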

How the results depend on the processing

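The results were recomputed under 18 other settings, 3 of them chosen after seeing the data. Called ratios changed direction only for DATP-like against AT1-like cells with IL-1β, where 1 or 2 DATP-like cells were left: the log2 ratio of Col4a1 was 0.2387 with all barcodes, 0.06532 with all variable genes and 0.2334 with seed 1, and with all variable genes that of Col4a4 was 0.2211 (0 UMIs, set at the floor of 3) and that of Lama3 0.4213 (1 UMI). Under each of these 3 settings 3 members were called higher and 2 lower in that comparison, and resolution 0.5 gave 1 higher. No paired analysis was possible because each condition is 1 library. Lamb3 in AT2-like cells stayed called, from 2.09 to 2.45. Col4a1 stayed called lower in these cells, from 0.451 to 0.499, close to the limit of 0.5. Members called higher in AT2-like cells numbered 1 in place of 2 at resolution 0.5, with Louvain clustering and with either other scaling, since Lama5 crossed the limit. They numbered 3 with separate clustering. Members called lower there numbered 3 at resolution 0.5 and 2 at resolution 2.0, with Louvain clustering and with the highest-scoring 5% of cells removed. In AT1-like cells 2 were lower with all barcodes, no doublet removal, the 5% removed, all variable genes, Louvain clustering, seed 1 and the mean over cells, and 0 at resolution 2.0. In AT1-like cells 1 was higher with no doublet removal, the 5% removed, Louvain clustering and the mean over cells. In stromal cells 1 was higher without surfactant, mitochondrial and ribosomal protein genes and without S1 and S9. Stromal members called lower numbered 1 with median-of-ratios scaling, and 0 with the mean over cells and with a minimum of 100 UMIs. In DATP-like against AT2-like cells, 3 members were called higher at resolution 2.0 and 6 at resolution 0.5, in place of 5. The count was 4 with Louvain clustering, with either other scaling and without cells carrying endothelial, immune or mesothelial markers. It was 7 with all barcodes, all variable genes and seed 1, on 1 or 2 DATP-like cells. Resolution 0.5 left 2 IL-1β AT1-like cells, with 1 member higher and 3 lower. No doublet removal, the 5% removed and separate clustering left no DATP-like IL-1β cells and gave no value there. The planned IL-1β comparison in DATP-like cells could not be made, as the control had none in the main clustering. Lama3 in AT2-like cells ranged from 0.685 to 2.01 and its direction depends on the clustering. The cause of these changes was not tested.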
